A study of Mus musculus with 6 samples.

Results

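The constitutive proteasome subunits were followed in hearts of mice infused with Ang II (angiotensin II), a hormone that constricts vessels and drives growth of the heart. Members were all genes whose symbol is Psma, Psmb, Psmc or Psmd followed by a number, without the inducible subunits Psmb8, Psmb9 and Psmb10. This gave 36 of the 22556 genes in the table. The rule uses names alone, and it was set with earlier results of these data known. A gene was tested if its mean level over the libraries was at least 1 RPKM (reads scaled to transcript length and to the size of the library), which left 34 members among 11096 tested genes. Psma8, the testis form of an alpha subunit, lay between 0.196 and 0.716 RPKM, and Psmb11, the thymus form of beta5, was listed at 0 in all 6 libraries, so neither was tested.

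RNA was sequenced from hearts of wild-type mice in 3 groups of 2 libraries. The controls are listed at day 0 of infusion, and the other groups received 1000 ng of Ang II per kg per min from a pump under the skin for 7 or for 28 days. The labels do not say what the controls received, nor the strain, age or sex, nor that each library came from its own mouse. The tests thus see variation among these libraries alone, and part or all of it could be technical. Relative to control replicate 1, sequencing depth was 0.89 to 1.17 in the other libraries, and 15636 to 16036 genes lay above 0. All 10 marker genes of heart muscle cells were tested, and they summed to between 38638 and 52306 RPKM per library. The controls differed in 5 markers of the atria, which summed to 320 RPKM in control replicate 1 and 3017 RPKM in replicate 2. The sums were 2038 to 2227 RPKM at 7 days and 2420 to 3427 RPKM at 28 days. Nppa made up most of the 7 day sums, at 1932 and 2084 RPKM. Myl7 was at 52.5 and 646 RPKM in the controls, 41.2 and 66.2 RPKM at 7 days and 341 and 182 RPKM at 28 days. Myl4 and Sln were also highest in control replicate 2, and lowest in control replicate 1 and at 7 days. The 2 control libraries were thus unlike. Values without either control library are therefore given where a gene passed.

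The proteasome is the main protease of the cytosol and nucleus and degrades proteins that carry ubiquitin chains. Its 20S core is a barrel of alpha and beta rings, in which the beta subunits encoded by Psmb5, Psmb6 and Psmb7 hold the active sites. Its 19S cap has a base, with a ring of ATPases that unfolds the substrate, and a lid that removes the ubiquitin. In heart muscle it turns over sarcomere and mitochondrial proteins, and the subunits of 1 particle are needed in fixed proportion.

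The subunits were abundant heart transcripts, and their levels differed more from each other than between groups. The tested members had a median of 48.5 RPKM, against 6.54 RPKM over all tested genes. The highest was Psmb7, the trypsin-like active subunit, at a mean of 128 RPKM, and the lowest tested was Psma5, a subunit of the alpha ring, at 3.94 RPKM. The 14 tested core subunits had a median of 74.0 RPKM, and the 17 cap subunits had a median of 45.0 RPKM. Within the cap, the 6 ATPases of the base, which include Psmc3 at 87.5 RPKM, had a median of 53.9 RPKM, and the 8 lid subunits a median of 42.4 RPKM. The 3 chaperones that help build the base, Psmd5, Psmd9 and Psmd10, are not part of the finished particle, and lay low at 7.53, 5.14 and 6.41 RPKM. These levels are all per transcript length.

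**Figure D1:**
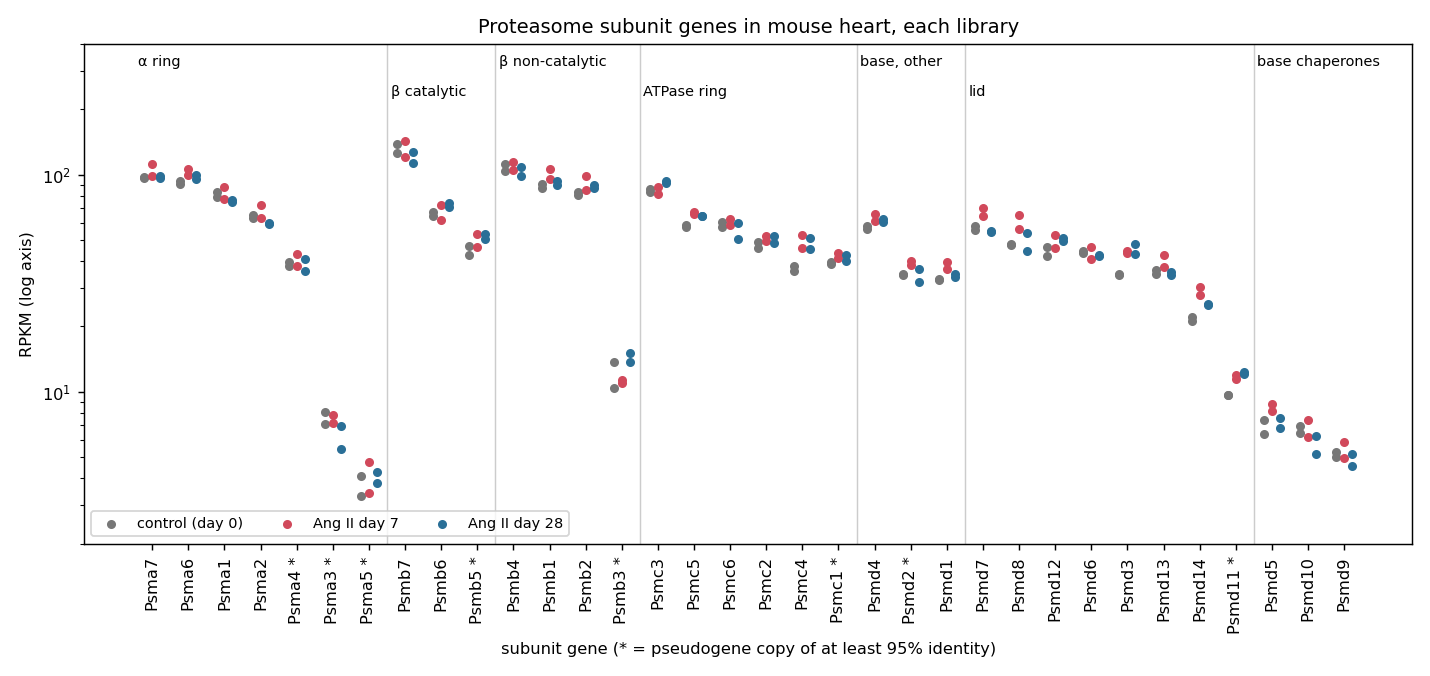
RPKM on a log axis for the 34 tested subunit genes, grouped by role, with 1 point per library, colours for control, day 7 and day 28, and a star at genes with a pseudogene copy. Points of a gene lie close together, while genes span from 3.94 RPKM for Psma5 to 128 RPKM for Psmb7 in their means.

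The low core subunits were genes with near-identical pseudogene copies. Each member's longest coding transcript was compared with all other genes of the GENCODE M21 annotation, and a pseudogene copy was an annotated pseudogene that matched over at least 300 bases at 95% identity or more. Of the 34 tested members 8 had such a copy. In the core these were Psma3 with 3 copies, Psmb3 with 3, Psma5 with 2, and Psma4 and Psmb5 with 1 each. These 5 genes had mean levels of 3.94 to 48.9 RPKM with a median of 12.5 RPKM, against 63.8 to 128 RPKM with a median of 93.6 RPKM for the 9 core genes without a pseudogene copy, so that the ranges did not overlap. Gm13835 matched Psma3 over 665 bases at 100% identity, and Gm8394 matched Psma5 over 952 bases at 98.6% identity. In the cap, Psmd11, the lowest cap gene at 11.2 RPKM, had 1 copy, and Psmd2 and Psmc1 had 1 and 2 copies at 36.1 and 40.9 RPKM. The 14 cap genes without a pseudogene copy ranged from 25.3 to 87.5 RPKM. Among them, Psmd1 shares 305 bases at 100% identity with Gm21972, which is not annotated as a pseudogene. How reads that match several places were counted is not given in the sources used here, so the levels of these 8 genes are uncertain, and the part of the copies in them was not tested.

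**Figure D2:**
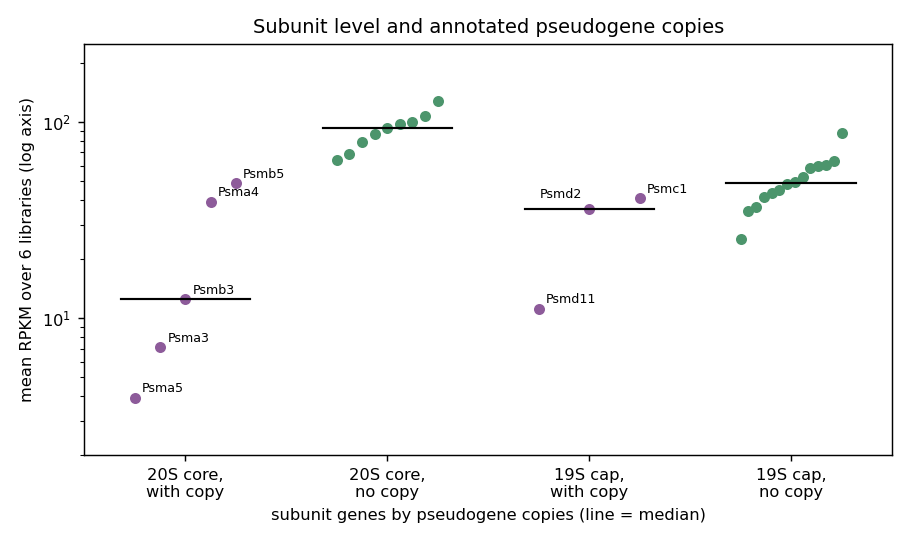
Mean RPKM over 6 libraries on a log axis for core and cap genes, split by whether the annotation holds a pseudogene copy, with a line at each median. The 5 core genes with a copy all lie below the 9 without, at 48.9 RPKM or less against 63.8 RPKM or more.

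The first comparison asked how the subunits stood after 7 days of infusion. Psmd14, which encodes the deubiquitinase of the lid, was the 1 subunit gene that rose. It was at 30.4 and 27.8 RPKM in the 7 day libraries, against 21.3 and 22.1 RPKM in the controls. Both 7 day libraries lay above both controls, as was so for 48.6% of all tested genes. The means were 29.1 ± 1.82 RPKM at 7 days and 21.7 ± 0.630 RPKM in controls (SD, n = 2 each). The log2 fold change was 0.41 (SE 0.10, 95% interval 0.18 to 0.64; limma adjusted p = 0.0335). This call was lost without either 7 day library (limma adjusted p = 0.121 and 0.085) or either control (limma adjusted p = 0.227 and 0.151). It was also lost when the libraries were rescaled by median ratio, at a log2 change of 0.25 (limma adjusted p = 0.150), or by quantiles, at 0.23 (limma adjusted p = 0.144). With no trend or the replicate block it was lost as well (limma adjusted p = 0.0522 and 0.0534). No pseudogene copy of Psmd14 was found.

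Of the 34 tested members 1 rose, or 2.94%, where 13.2% of all tested genes rose. No member fell, where 2.27% of all genes fell. Over all genes this was 1461 that rose and 252 that fell, against 710 and 450 with median ratio scaling. With limma p taken unadjusted at 0.05, 6 members were higher and none of 34 were lower, against 26.5% and 5.66% of all genes. In 18 members, or 52.9%, both 7 day libraries lay above both controls, as in 48.6% of all genes, and in 0 members both lay below, where 16.1% of all genes had that order. The share of higher members was thus below that of all genes by both rules on p, and near it by the order of the libraries.

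The upstream 250 bases of Psmd14 and of Psmc4, the 2 members with the highest log2 change at 7 days, are shown here from RefSeq on GRCm38.p6, which is not one of the builds the submitters name. They end just before the annotated start of transcription, 5′ to 3′ on the gene's strand, at chr2:61711444-61711693 on the plus strand for Psmd14 and chr7:28050093-28050342 on the minus strand for Psmc4. Capitals mark GGGCGG on either strand, the GC box that SP1 family factors bind, a motif chosen after the sequences were seen.
Psmd14: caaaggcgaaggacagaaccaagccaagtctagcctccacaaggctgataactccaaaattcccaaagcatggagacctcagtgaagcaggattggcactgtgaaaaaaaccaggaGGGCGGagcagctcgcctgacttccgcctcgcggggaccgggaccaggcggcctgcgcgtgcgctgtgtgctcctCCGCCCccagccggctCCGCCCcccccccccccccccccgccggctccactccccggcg
Psmc4: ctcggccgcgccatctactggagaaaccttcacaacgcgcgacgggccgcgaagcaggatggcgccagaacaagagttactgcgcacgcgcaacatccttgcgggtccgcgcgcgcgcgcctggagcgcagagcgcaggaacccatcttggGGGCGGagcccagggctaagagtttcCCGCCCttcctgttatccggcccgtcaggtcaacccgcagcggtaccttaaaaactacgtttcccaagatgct
Psmd14 held 3 GC boxes and Psmc4 held 2. The same 250 bases held at least 1 in 17 of the 29 members found in the promoter table, or 58.6%, and in 35.4% of all its genes. Those genes were not matched to the members in level and include genes not tested here, and the difference was not tested.

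Proteasome genes are known targets of NFE2L1, which binds antioxidant response elements when proteasome activity is low. The core of that element, TGACNNNGC on either strand, was searched in the 300 bases from 250 before to 50 after the start. It was found in 5 of 29 members, or 17.2%, against 14.0% of all genes in the table, and in neither Psmd14 nor Psmc4. Of these matches 1 overlapped a GC box. The matches of the active subunits Psmb5 and Psmb6 and of the base chaperone Psmd9, each within 50 bases of the start, are shown with the element in capitals, on GRCm38.p6 at chr14:54618024-54618052 on the minus strand, chr11:70525338-70525366 on the plus strand and chr5:123228149-123228177 on the plus strand.
Psmb5: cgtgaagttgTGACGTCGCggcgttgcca
Psmb6: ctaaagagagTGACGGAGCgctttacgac
Psmd9: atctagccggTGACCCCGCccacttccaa
At 7 days the log2 changes of these genes were 0.15, 0.03 and 0.06, and none passed. A match of letters is a description and does not show binding. Nfe2l1 itself was at 111 and 109 RPKM at 7 days, against 90.7 and 92.7 RPKM in controls. Its log2 change of 0.26 missed the threshold (limma adjusted p = 0.0942). It was the highest of 5 listed regulators of proteasome genes, whose median was 0.07, and none of them passed. The lowest was Nfe2l2 at -0.14, with 25.9 and 22.3 RPKM at 7 days, against 26.6 and 26.3 RPKM in controls.

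The active subunits of the core did not pass at 7 days. Psmb7 was at 143 and 121 RPKM in the 7 day libraries, against 138 and 126 RPKM in controls. Its log2 change was -0.00 (95% interval -0.29 to 0.29; limma adjusted p = 0.99). Psmb6, the caspase-like subunit, was at 72.6 and 61.8 RPKM, against 64.4 and 67.2 RPKM in controls, and its interval ran from -0.23 to 0.28. Psmb5, the chymotrypsin-like subunit, was at 53.3 and 46.3 RPKM, against 42.6 and 47.1 RPKM in controls, with an interval from -0.11 to 0.41. The libraries of the 2 groups overlapped in all 3 genes.

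The other core subunits also stayed within a narrow range of log2 changes at 7 days. The 7 tested alpha subunits ran from -0.01 for Psma3 to 0.16 for Psma6, with a median of 0.07. Psma6 was at 106 and 99.7 RPKM, against 93.2 and 91.0 RPKM in controls. The 4 non-catalytic beta subunits ran from -0.09 for Psmb3 to 0.18 for Psmb1. Psmb1 was at 106 and 95.2 RPKM, against 86.8 and 90.6 RPKM in controls, and Psmb3 was at 11.4 and 11.03 RPKM, against 13.7 and 10.5 RPKM. None of these genes passed.

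The 4 highest log2 changes at 7 days belonged to cap genes. Psmc4, an ATPase of the base, was at 53.0 and 46.1 RPKM, against 38.1 and 36.2 RPKM in controls, a log2 change of 0.41 (95% interval 0.14 to 0.68; limma adjusted p = 0.0539). Psmd3, a scaffold subunit of the lid, was at 43.8 and 44.5 RPKM, against 34.4 and 34.7 RPKM in controls, a log2 change of 0.35 (95% interval 0.11 to 0.58; limma adjusted p = 0.0566). In both genes the 7 day libraries lay above the controls without overlap, an order that 48.6% of all tested genes had. Neither gene passed. Both passed when the 28 day libraries, which are no part of this comparison, did not share in the estimate of the spread (limma adjusted p = 0.038 and 0.0356). Over all tested genes 1921 rose in that setting, against 1461 in the main fit. With median ratio scaling the log2 changes of Psmc4 and Psmd3 were 0.24 and 0.18 (limma adjusted p = 0.244 and 0.253), and with quantile normalization they were also 0.24 and 0.18 (limma adjusted p = 0.184 and 0.237).

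The lid had a median log2 change of 0.26 over its 8 genes, and in 6 of them both 7 day libraries lay above both controls, an order that 48.6% of all tested genes had. Psmd8 was at 64.9 and 56.1 RPKM, against 47.9 and 47.6 RPKM in controls, and Psmd7 at 70.5 and 64.4 RPKM, against 55.5 and 57.8 RPKM. Psmd6, also of the lid, had a log2 change of -0.02. The ATPases had a median of 0.10 and ran from -0.00 for Psmc3 to 0.41 for Psmc4. The 3 other base subunits, the scaffolds Psmd1 and Psmd2 and the ubiquitin receptor Psmd4, lay at 0.22, 0.18 and 0.15. The base chaperones ran from 0.01 for Psmd10, also called gankyrin, to 0.28 for Psmd5.

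At 7 days the median change of the subunits was level with that of all genes. Their median log2 change was 0.14, and that of all tested genes was also 0.14. Of the 34 members 17 lay above the median of all genes. The median was 0.06 over the core subunits and 0.18 over the cap subunits. Median ratio scaling moved the median of all genes to -0.02, and with it the members had a median of -0.02, with 11 of 34 above 0 in place of 29. The members' changes spread less than those of other genes, with an interquartile range of 0.16, against 0.37 for the 7078 tested genes in the same range of levels. No member changed over 1.5-fold, as 12.3% of those 7078 genes did. That range runs from 3.94 to 128 RPKM, and within it those genes were not matched to the members in level. These differences in spread were not tested.

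**Figure D3:**
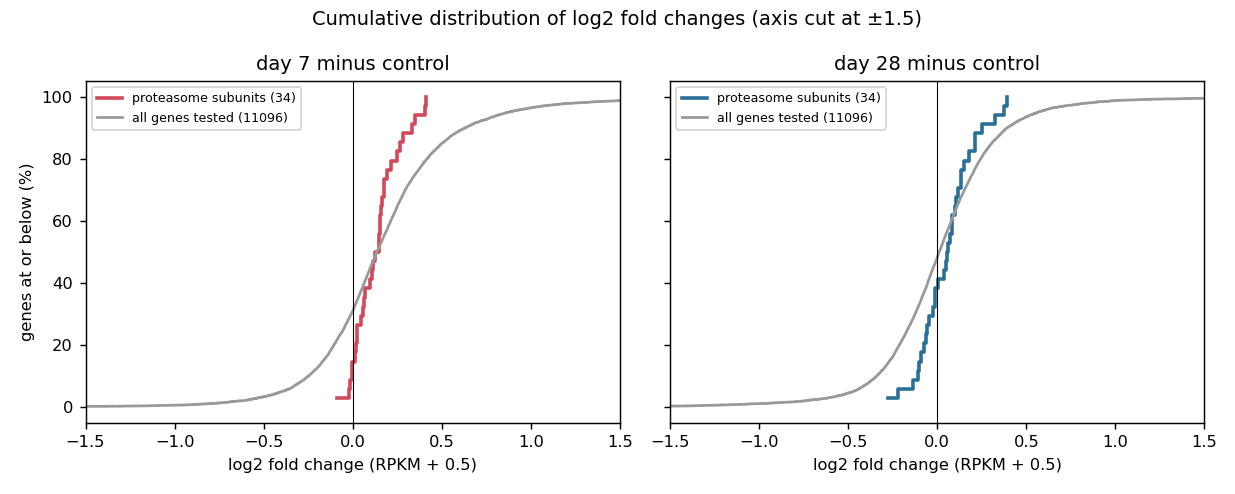
Cumulative share of genes by log2 fold change, for the 34 subunit genes and for all 11096 tested genes, at day 7 and at day 28 against control. The curves of the subunits are steeper, and the medians are 0.14 against 0.14 for all genes at day 7 and 0.06 against 0.01 at day 28.

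The 7 day libraries differed from each other over nearly all subunits. In 30 of 34 members replicate 1 lay above replicate 2, where 52.3% of all tested genes did. The members summed to 1929 and 1742 RPKM in the 7 day libraries, against 1671 and 1693 RPKM in the controls. Set against the control mean, the members' median log2 value was 0.20 in 7 day replicate 1 and 0.05 in replicate 2, while all genes were at 0.15 and 0.13. For the cap these values were 0.24 and 0.15, and for the core 0.14 and -0.00.

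Markers of other cell types moved with the 7 day group. Of 8 fibroblast markers 5 rose, and the list summed to 925 to 967 RPKM at 7 days, against 472 to 477 RPKM in controls. Of 9 macrophage markers 8 rose, at a sum of 552 to 609 RPKM, against 326 to 331 RPKM in controls. The 3 tested proliferation genes of 5 all rose, at a list sum of 11.3 to 17.3 RPKM, against 1.75 to 1.77 RPKM. Of 6 endothelial markers 3 rose, at 222 to 262 RPKM, against 159 to 168 RPKM. Of the 10 heart muscle markers 1 rose, with sums of 38638 to 47800 RPKM at 7 days and 41650 to 42545 RPKM in controls. Among the 3 red cell genes that were tested 1 rose, at a sum of 32.5 to 40.4 RPKM, against 10.5 to 20.7 RPKM. Of the 4 tested atrial markers 0 passed. No marker of these lists was at 0 throughout. Their part in the change of Psmd14 was not tested, and in bulk heart RNA a change in the share of a cell type and a change in RNA per cell cannot be told apart.

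**Figure D4:**
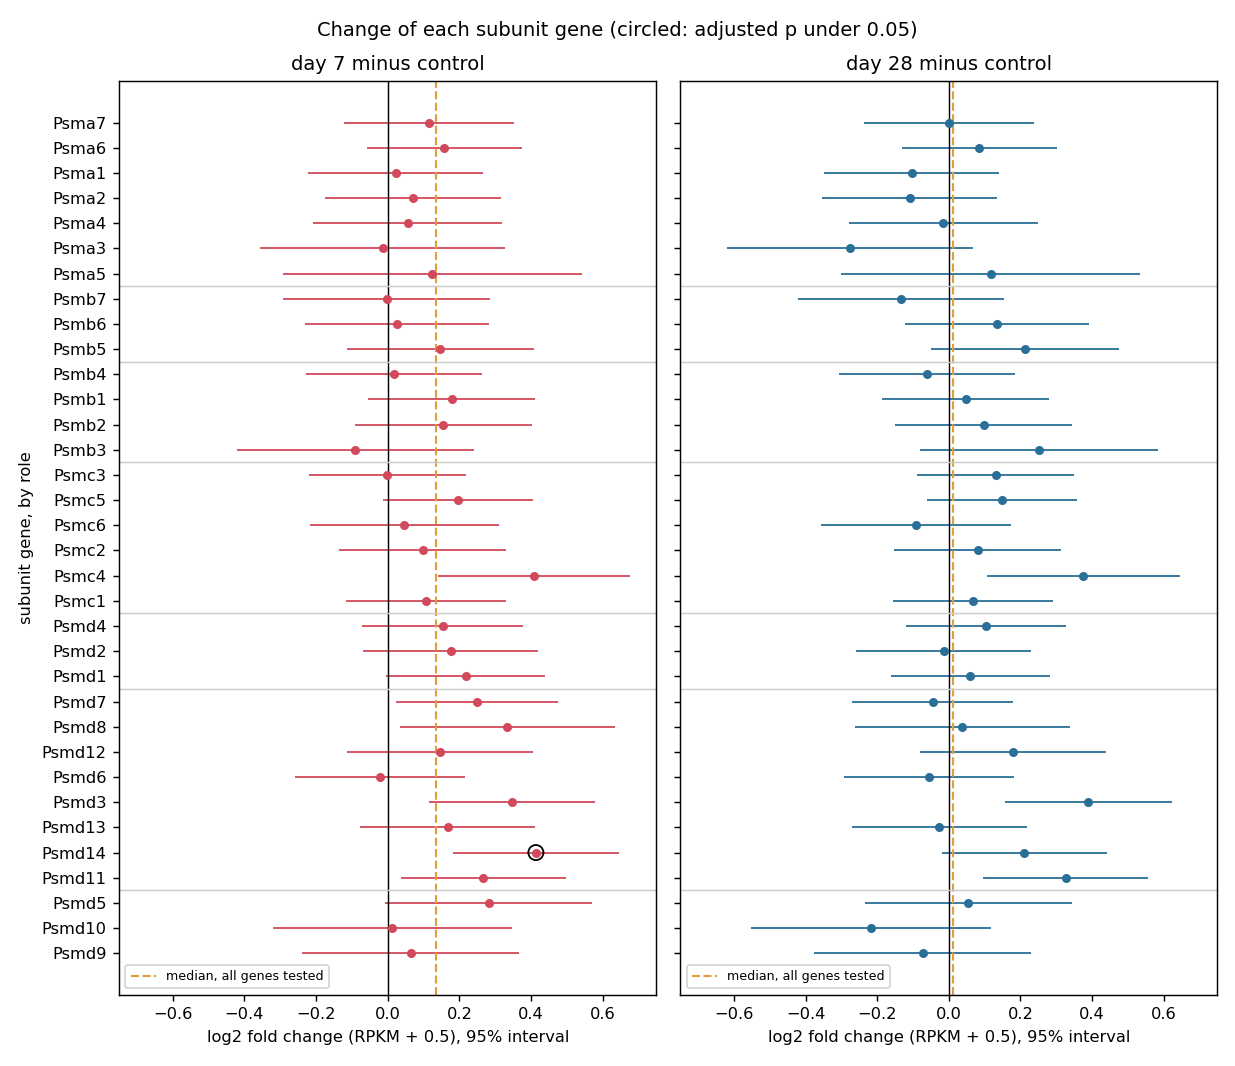
Log2 fold change of each tested subunit gene with its 95% interval, by role, at day 7 and at day 28 against control, with a dashed line at the median of all tested genes. Psmd14 at day 7, at 0.41, is the 1 circled gene with an adjusted p under the threshold.

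The second comparison asked how the subunits stood after 28 days. No subunit gene passed. Of 34 tested members 0 rose and 0 fell by limma, where 2.87% of all tested genes rose and 1.54% fell. With p taken unadjusted at 0.05, 3 members were higher and 0 lower, where 12.8% of all genes were higher and 9.32% were lower. Both 28 day libraries lay above both controls in 15 members, or 44.1%, where 28.8% of all genes had that order. They lay below both controls in 6 members, or 17.6%, where 25.8% of all genes did. These differences in share were not tested. The members' median log2 change was 0.06, and that of all genes was 0.01.

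The 3 members at an unadjusted p under 0.05 were Psmd3, Psmc4 and Psmd11. Psmd3 was at 42.9 and 48.1 RPKM in the 28 day libraries, against 34.4 and 34.7 RPKM in controls, a log2 change of 0.39 (95% interval 0.16 to 0.62; limma adjusted p = 0.0761). Psmc4 was at 51.3 and 45.5 RPKM, against 38.1 and 36.2 RPKM in controls, a log2 change of 0.38 (95% interval 0.11 to 0.64; limma adjusted p = 0.119). Psmd11, the lid subunit whose level sets the amount of assembled proteasome in human stem cells, was at 12.3 and 12.1 RPKM, against 9.67 and 9.62 RPKM in controls. Its log2 change was 0.33 (95% interval 0.10 to 0.56; limma adjusted p = 0.115), with the doubt about its pseudogene copy given above. In all 3 genes the 28 day libraries lay above the controls without overlap, an order that 28.8% of all tested genes had. The 3 genes were picked by p on the same libraries, so this order adds no evidence. Psmd14 was at 25.3 and 25.1 RPKM, against 21.3 and 22.1 RPKM in controls, and its log2 change of 0.21 missed the threshold (limma adjusted p = 0.262).

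**Figure D5:**
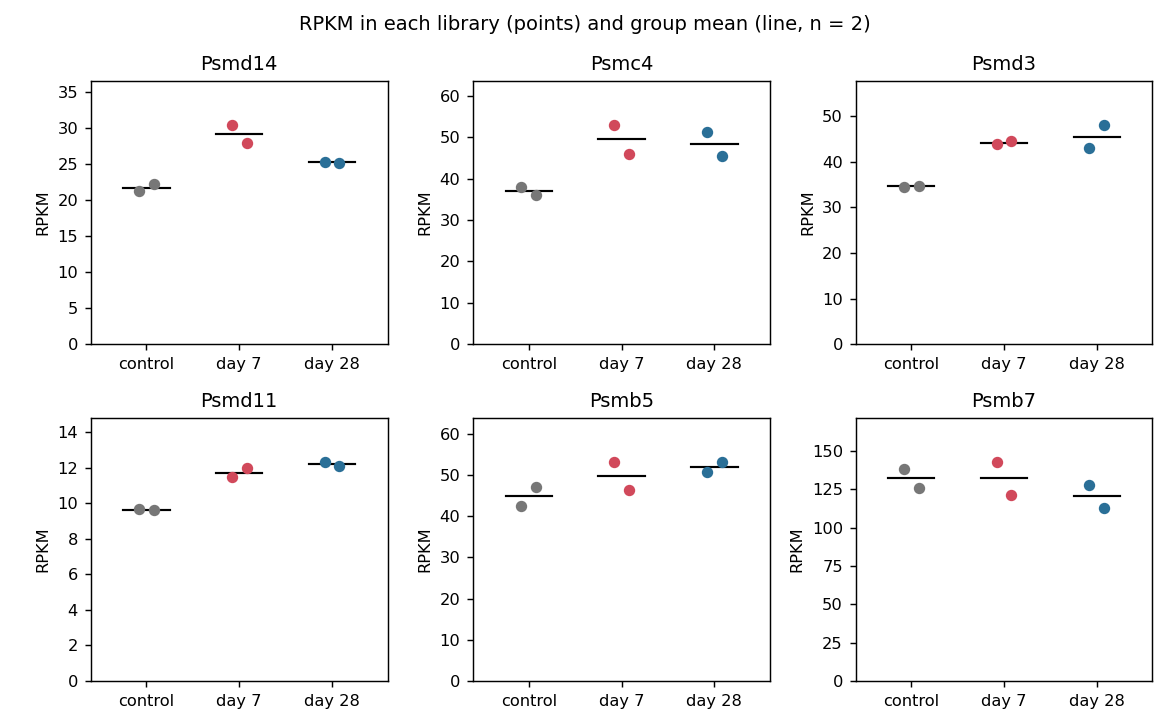
RPKM in each library for Psmd14, Psmc4, Psmd3, Psmd11 and the active subunits Psmb5 and Psmb7, from control to day 28, with a line at the mean of 2 libraries. The lowest 7 day and 28 day points of Psmd14, Psmc4, Psmd3 and Psmd11 lie above the highest control point, and those of Psmb7 overlap the controls. Of all tested genes, 48.6% lay above the controls in this way at 7 days and 28.8% at 28 days.

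Core subunits lay on both sides of the controls at 28 days. Psmb5 was at 50.7 and 53.3 RPKM, against 42.6 and 47.1 RPKM in controls, and Psmb6 at 73.8 and 70.8 RPKM, against 64.4 and 67.2 RPKM. Psmb7 was at 128 and 113 RPKM, against 138 and 126 RPKM in controls. The log2 changes of Psmb5, Psmb6 and Psmb7 were 0.21, 0.13 and -0.13. The first 2 genes did not overlap with the controls, the third did, and none passed. The alpha subunits ran from -0.28 for Psma3 to 0.12 for Psma5, both of them genes with pseudogene copies. Psma3 was at 5.45 and 6.99 RPKM, against 8.10 and 7.09 RPKM in controls. The non-catalytic beta subunits ran from -0.06 for Psmb4 to 0.25 for Psmb3.

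In the cap, the ATPases ran from -0.09 for Psmc6 to 0.38 for Psmc4 on the log2 scale, and the lid from -0.06 for Psmd6 to 0.39 for Psmd3. The base subunits Psmd1, Psmd2 and Psmd4 lay between -0.01 and 0.10. Psmd10 had the lowest change among the base chaperones, at 5.17 and 6.27 RPKM, against 6.99 and 6.44 RPKM in controls, a log2 change of -0.22 (limma adjusted p = 0.409). Summed over the members, the 28 day libraries held 1747 and 1726 RPKM, against 1671 and 1693 RPKM in the controls. The fibroblast and macrophage lists summed to 441 to 539 and 210 to 295 RPKM at 28 days, against 472 to 477 and 326 to 331 RPKM in controls.

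A change of 2-fold in either direction lay outside the 95% interval of every tested member in all 3 comparisons, each interval taken on its own. A change of 1.5-fold lay outside it for 31 of 34 members at 7 days and for 31 at 28 days. The exceptions were Psmd14, Psmc4 and Psmd8 at 7 days, and Psmd3, Psmc4 and Psma3 at 28 days. Psmb3 at 28 days was only just inside, with an upper bound of 0.583 on the log2 scale. The intervals do not take in the choice of scaling, which moved the members' 7 day median from 0.14 to -0.02 with median ratio scaling. Replicates of the members differed by a median of 0.06 in controls, 0.14 at 7 days and 0.07 at 28 days on the log2 scale. For all tested genes these medians were 0.11, 0.15 and 0.18.

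The third comparison set 28 days against 7 days. Of 34 tested members 0 were higher and 0 lower by limma, where 0.406% of all tested genes were higher and 4.26% lower. With p taken unadjusted at 0.05, 1 member was higher and 1 was lower, where 3% and 19.1% of all genes were. The higher one was Psmb3, at 13.7 and 15.0 RPKM at 28 days, against 11.4 and 11.03 RPKM at 7 days (log2 change 0.34; limma adjusted p = 0.217). The lower one was Psmd7, at 54.5 and 55.2 RPKM, against 70.5 and 64.4 RPKM at 7 days (log2 change -0.30; limma adjusted p = 0.137). For Psmd14 the log2 change was -0.20 (limma adjusted p = 0.276), so its levels at 28 and at 7 days were not shown to differ. The members' median was -0.08, with 7 of 34 above 0, against -0.12 for all genes. With median ratio scaling the members' median was 0.08, with 24 of 34 above 0, against 0.02 for all genes.

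Other genes of the ubiquitin and proteasome system were taken from lists of 40 genes, of which 39 were tested. At 7 days 1 rose and 0 fell, where 13.2% of all tested genes rose and 2.27% fell. Uba1, the main enzyme that activates ubiquitin, was at 51.7 and 54.4 RPKM, against 38.3 and 42.9 RPKM in controls (log2 change 0.38; limma adjusted p = 0.0464). Both 7 day libraries lay above both controls, an order that 48.6% of all tested genes had. The call was lost without any single 7 day or control library and with either rescaling of the libraries, with limma adjusted p from 0.0984 to 0.32. It was also lost with no filter, no trend or the replicate block (limma adjusted p = 0.0586, 0.0726 and 0.069). At 28 days 0 of the 39 rose and 0 fell, where 2.87% of all tested genes rose and 1.54% fell. The same counts held between 28 and 7 days, where 0.406% of all genes were higher and 4.26% lower.

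Partners of the particle did not pass in any comparison, and their log2 changes lay on both sides of the controls. At 7 days they ran from -0.08 to 0.31 over 5 genes of activators and an inhibitor. The range was -0.16 to 0.54 over 5 core assembly chaperones and -0.17 to 0.38 over 7 other genes of the cap or bound to it. At 28 days these 3 ranges were -0.42 to 0.28, -0.36 to 0.45 and -0.29 to 0.34. Adrm1, a ubiquitin receptor of the cap, was at 9.01 and 8.004 RPKM at 7 days, against 6.05 and 6.82 RPKM in controls, and its log2 change of 0.38 missed the threshold (limma adjusted p = 0.0729). For Usp14, a deubiquitinase bound to the cap, the log2 change was 0.28 (limma adjusted p = 0.116). The activator gene Psme3, whose product caps the core in the nucleus, had 0.31 (limma adjusted p = 0.0697). Pomp, the chaperone of core assembly, was at 125 and 116 RPKM, against 110 and 110 RPKM in controls, and had 0.12. The highest core assembly chaperone was Psmg3, at 0.54 (limma adjusted p = 0.0887). The lowest at 7 days were Psme1, Psmg2 and AI314180 in these 3 lists, at -0.08, -0.16 and -0.17. Psme4, which encodes the activator PA200, was at 60.3 RPKM in 28 day replicate 1 and at 35.7 RPKM in replicate 2, while all other libraries lay between 60.3 and 63.9 RPKM.

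The inducible subunits, which replace the active ones in the immunoproteasome, did not pass in any comparison. Psmb10, the counterpart of Psmb7, was at 42.6 and 50.6 RPKM at 28 days, against 31.6 and 32.8 RPKM in controls (log2 change 0.52; limma adjusted p = 0.0574). Relative to Psmb7 in the same library it stood at 33.4% and 44.8% at 28 days, against 22.9% and 26.1% in controls. The other pairs were not higher in both libraries: Psmb9 stood at 6.44% and 13.0% of Psmb6 at 28 days, against 16.9% and 11.01% in controls. Psmb8 stood at 19.02% and 29.9% of Psmb5, against 36.1% and 27.3% in controls.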

How the data were processed

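The authors deposited RPKM values in 1 table, with a column for each library, per the file headers. Tools named in the submitters' processing notes are Bowtie 0.12.9, TopHat2 2.0.12, DESeq2 and HTSeq, and the builds named are mm9 and mm8, all without a stated role. Neither the annotation nor the counting of reads that match several genes is given in the sources used here.

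RPKM are not counts, so log2(RPKM + 0.5) was fitted in limma 3.58.1 (R 4.3.3) with group means over all 6 libraries and eBayes with trend (3 residual and 4.21 prior degrees of freedom). For low genes this scale understates a fold change. Passing means a limma p under 0.05 after Benjamini-Hochberg adjustment across the 11096 genes that averaged at least 1 RPKM. Intervals are limma's, at 95%, for 1 gene each. The script was tested on simulated data. Relative depth was the most common ratio of control replicate 1 to the library in RPKM, over genes below 0.5 RPKM in control replicate 1. Only ratios in a window around 1, set in advance, were taken, so a depth outside it would not be seen. The depth in reads is unknown, so no counting interval is given.

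The members and lists were chosen with earlier results of these data known. A gene of the pathway lists is not reported here and is left out of their counts. Named were members that passed, Psmb5, Psmb6 and Psmb7, the lowest and highest members, and the highest and lowest change in each role at 7 and 28 days. Others, such as Psmd7, Psmd8 and Psmd11, were named after their values were seen. So were the genes of the pathway lists that did not pass. Copies were found with blastn 2.17.0. Sequences are from RefSeq (GRCm38.p6), where 29 members were matched by symbol and used. Any member window on a certain chromosome was left out of the promoter shares. Python 3.11.15, pandas 2.3.3 and matplotlib 3.10.9 were used.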

Additional observations from a re-analysis of the deposited data

How the results depend on the processing

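At 7 days the count of members that rose was 0 with median ratio scaling, quantile normalization, no trend, or an unadjusted p under 0.05 with a fold over 1.5. It was 3 with only the 2 groups compared, namely Psmd14, Psmc4 and Psmd3, where 1921 of the 11096 tested genes rose. At an unadjusted p under 0.05 it was 6, where 2935 of all tested genes rose. Leaving out 1 library gave 0 to 3, with 0 without any 7 day or control library and 3 without either 28 day library. Psmd14 was at an adjusted p of 0.0522 with no trend. At 28 days the count that rose was 3 at an unadjusted p, and between 28 and 7 days 1 rose and 1 fell there. In the other settings tried these counts stayed at 0, and Psmd14 kept its call at 7 days with either other pseudocount, no filter and a mean RPKM of at least 5.

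The members' median log2 change at 7 days of 0.14 was -0.024 with median ratio scaling and -0.027 with quantile normalization, and ran from 0.052 without 7 day replicate 1 to 0.20 without 7 day replicate 2. At 28 days it was -0.036 with quantile normalization. Between 28 and 7 days it was 0.078 with median ratio scaling, and -0.16 to -0.023 with 1 library left out. The sign of the members' median thus changed at 7 days with both scalings, at 28 days with quantile normalization and between 28 and 7 days with median ratio scaling. Over all genes the counts at 7 days were 710 higher and 450 lower with median ratio scaling and 701 and 528 with quantile normalization, against 1461 and 252, and 340 to 1917 rose with 1 library left out. At 28 days 318 rose, against 45 with no filter and 23 to 302 with 1 library left out.

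Replicate numbers are shared between groups but no label pairs the samples, and differences between replicates correlated at 0.15, -0.02 and -0.01 between the groups. With the replicate block 1 member rose at 7 days, Psmc4 (adjusted p = 0.049) in place of Psmd14 (adjusted p = 0.0534), and 0 changed in the other comparisons. Groups of 2 libraries limit what can be called, and with 1 left out the lone library is assumed to vary like the other groups.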

Other observations

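At 7 days the median log2 change was 0.12 over the 8 members with a pseudogene copy and 0.15 over the 26 without, and at 28 days it was 0.09 and 0.05. Between 28 and 7 days it was -0.02 over the genes with a copy, of which 3 of 8 lay above 0, and -0.12 over those without, of which 4 of 26 did. These differences were not tested.

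Psma8, the testis form of the alpha4 subunit, was at 0.716 and 0.474 RPKM at 7 days, against 0.196 and 0.328 RPKM in controls, at levels too low to be tested here. Among the inducible subunits, Psmb8 and Psmb9 were at 9.65 and 4.76 RPKM in 28 day replicate 1 and at 15.9 and 9.21 RPKM in replicate 2, while Psmb10 was at 42.6 and 50.6 RPKM.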
